A study of Homo sapiens with 4 samples.

Results

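The miR-320 family was followed here through its 4 forms on the array, hsa-miR-320a, hsa-miR-320b, hsa-miR-320c and hsa-miR-320d, in cells of the colon cancer line HCT116. The members were taken by these names among the 851 human miRNAs of the array, and each of the 4 was detected on every array. The study compared MG cells, a highly migratory subpopulation, with non-MG cells, its low migratory counterpart. Both subpopulations were obtained by the authors from HCT116 (p53 wild type) through repeated transwell selection. MG cells were those that crossed the membrane and non-MG cells those left on its upper side. The labels name no further treatment of either, nor does the paper for the samples on these arrays. There were 2 samples of each group, so every comparison sets 2 arrays against 2. The labels number the samples but do not say whether they came from separate cultures, so p-values measure the spread between these samples, which may be technical.

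Most miRNAs are cut out of a long primary transcript by Drosha and its partner DGCR8 in the nucleus, and are then trimmed by Dicer in the cytoplasm. The miR-320 hairpin is known for a shorter route: its 5′ end is the start of transcription itself and carries a cap, so that the hairpin needs no cut by Drosha, leaves the nucleus with exportin-1 and is cut by Dicer only. The cap keeps the 5′ arm out of Argonaute, and the mature miRNA comes from the 3′ arm. Whether this route holds for each of the forms followed here was not tested. A miRNA recognises its target mRNAs mainly by its seed, bases 2 to 8, so forms with the same seed are held to share many targets.

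Mature sequences in the RefSeq table (GRCh38.p14) were found for 3 of the 4 members, hsa-miR-320a being the one without an entry. They are shown because the forms differ only at their 3′ end, which bears on how far an array can tell them apart. Capitals mark the seed.
hsa-miR-320b: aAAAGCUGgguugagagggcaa
hsa-miR-320c: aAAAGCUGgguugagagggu
hsa-miR-320d: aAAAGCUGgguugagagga
The first 18 bases were the same in these 3 forms. Counted from 1 at the 5′ end, hsa-miR-320c differed from hsa-miR-320b by C20U and lacked its last 2 bases, and hsa-miR-320d differed from hsa-miR-320b by G19A and lacked its last 3 bases. Their lengths were 22, 20 and 19 bases. Of the 851 human miRNAs on the array, 737 had a mature sequence in the table, and the 3 forms above were the ones among them with the seed AAAGCUG. A miRNA off the array, hsa-miR-4429, had it too.

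Each of the 3 forms is annotated at 2 loci whose mature sequences are identical. The hairpins are shown because they differ around the same mature sequence, so that the array gives 1 signal for both loci. Capitals mark the mature miRNA, which lies in the 3′ arm of each hairpin and ends 9 to 12 bases before the hairpin's own end. The locations are those of RefSeq on GRCh38.p14, since the files give no positions for miRNAs.
MIR320B1, chr1:116671746-116671817, plus strand: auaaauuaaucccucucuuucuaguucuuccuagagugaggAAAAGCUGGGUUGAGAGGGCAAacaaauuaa
MIR320B2, chr1:224257040-224257110, minus strand: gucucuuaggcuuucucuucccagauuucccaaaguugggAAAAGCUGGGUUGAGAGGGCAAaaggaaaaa
MIR320C1, chr18:21683518-21683589, plus strand: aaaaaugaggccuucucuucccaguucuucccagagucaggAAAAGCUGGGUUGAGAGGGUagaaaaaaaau
MIR320C2, chr18:24321675-24321746, plus strand: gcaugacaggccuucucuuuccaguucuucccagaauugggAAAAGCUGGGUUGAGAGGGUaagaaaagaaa
MIR320D1, chr13:40727816-40727887, minus strand: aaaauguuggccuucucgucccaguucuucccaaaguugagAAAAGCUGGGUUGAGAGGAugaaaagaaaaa
MIR320D2, chrX:140926160-140926231, minus strand: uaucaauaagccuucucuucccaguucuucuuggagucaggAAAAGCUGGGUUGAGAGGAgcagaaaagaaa

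Across the arrays, 8.71% to 11.1% of miRNA spots stood well above background and no miRNA spot was saturated. All arrays lay on 1 slide, non-MG in its row 1 and MG in its row 2, so the position on the slide and the group cannot be told apart. Of 8 epithelial and gut marker miRNAs, the 5 members of the miR-200 family were detected on all 4 arrays (miR-200a, miR-200b, miR-200c and miR-141 by their 3p arm, and miR-429), with signals up to 407. The gut markers miR-192 and miR-194 were not detected on any array by either arm, nor was miR-215-5p. Of 11 marker miRNAs of leukocytes, endothelium, fibroblasts, muscle and liver, read by 18 arms, 16 arms were not detected on any array. The other 2 were miR-126-3p and miR-145-5p, with signals of at most 10.4.

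The signal of a miRNA is the sum of the background-subtracted intensities of its probes. As deposited by the authors, the signal of hsa-miR-320a was 69.9 and 74.5 with non-MG RNA, compared with 68.3 and 68.1 with MG RNA. That of hsa-miR-320b was 121 and 124 with non-MG RNA, compared with 120 and 124 with MG RNA. For hsa-miR-320c it was 95.7 and 97.1 for non-MG against 95.1 and 100.3 for MG. These 3 forms were close to level over the arrays, although for hsa-miR-320a both MG values were below both non-MG values. The signal of hsa-miR-320d was 142.2 and 132 with non-MG RNA, compared with 147 and 152 with MG RNA, and here the lower MG array exceeded the higher non-MG array. Groups that did not overlap in the deposited signals were thus found for 2 of 4 members, 1 in each direction, compared with 57.9% of the 57 miRNAs tested below. A brighter signal of one form does not mean that it was more abundant than another, since probes bind with different strength.

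Among the 57 human miRNAs bright enough to be tested, the deposited signals of the family were some of the steadiest. The coefficient of variation over the 4 arrays was 1.71% for hsa-miR-320b and 2.38% for hsa-miR-320c, the lowest and second lowest of the 57 miRNAs. It was 4.24% for hsa-miR-320a (rank 5 from the lowest) and 5.97% for hsa-miR-320d (rank 10), against a median of 11.8% over the 57 miRNAs. For hsa-miR-320b the highest array was 1.04 times the lowest. These are descriptions of the 4 arrays with no test.

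To compare the groups, each array was scaled by its 75th percentile over the 116 miRNAs that every array detected. This percentile had been 158 and 142.4 with non-MG RNA, compared with 153 and 148 with MG RNA, so scaling moved the non-MG arrays in opposite directions. Their values came to lie farther apart for hsa-miR-320a, hsa-miR-320b and hsa-miR-320c and closer together for hsa-miR-320d. After it, the coefficient of variation of the members lay between 6.01% and 7.996%, with ranks of 14 to 20 among the 57 miRNAs and a median of 13.6% over all of them. The steadiness of the deposited signals was thus in part lost with the scaling.

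**Figure D1:**
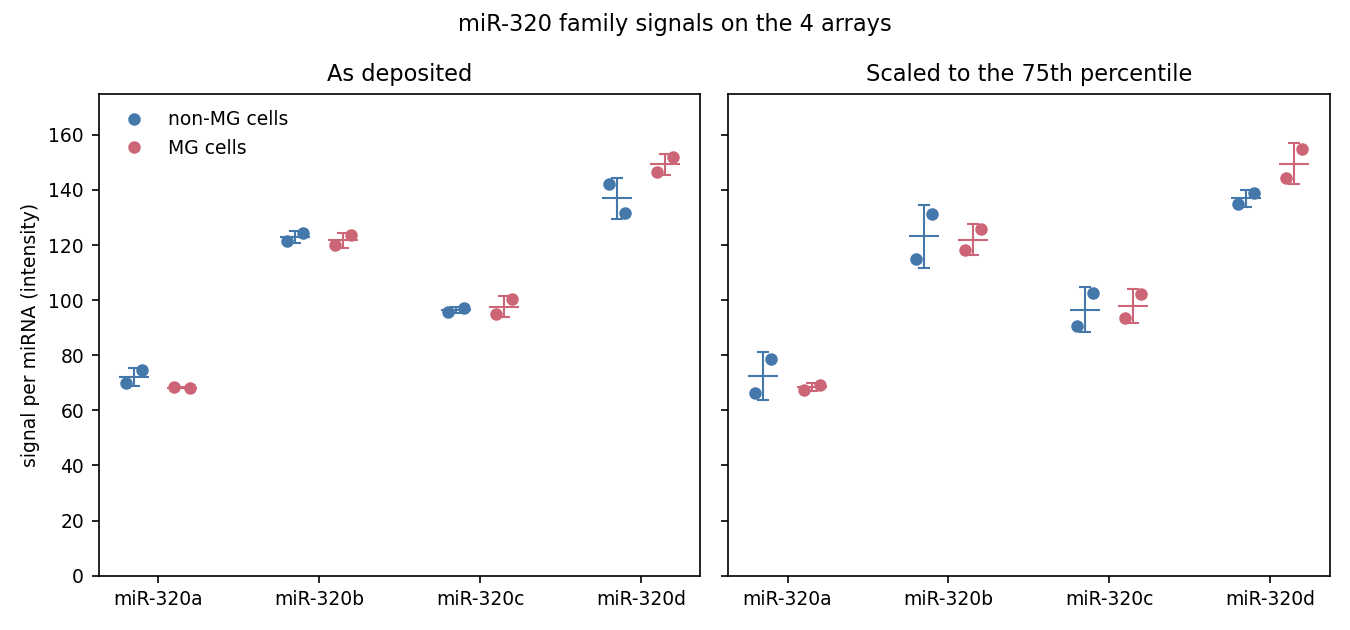
Signal per miRNA (intensity, vertical axis) of the 4 forms of the miR-320 family on the non-MG (blue) and MG (red) arrays, as deposited (left) and after scaling (right), with points for arrays and bars for the mean ± SD (n = 2). Only miR-320d has both MG arrays above both non-MG arrays on both scales, and the non-MG points of the other forms lie farther apart after scaling than before it.

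Scaled signals of hsa-miR-320a were 66.3 and 78.6 with non-MG RNA, compared with 67.3 and 69.4 with MG RNA. The MG arrays lay between the non-MG arrays, with 68.3 ± 1.47 for MG and 72.5 ± 8.71 for non-MG (SD, n = 2 each). Scaled signals of hsa-miR-320b were 115 and 131 for non-MG against 118 and 125.96 for MG. Its means were 121.997 ± 5.60 for MG and 123 ± 11.4 for non-MG (SD, n = 2 each), and here too both MG arrays lay between the non-MG arrays. Scaled signals of hsa-miR-320c were 90.7 and 102.4 for non-MG against 93.6 and 102.1 for MG, again with the MG arrays inside the range of the non-MG arrays. Its means were 97.9 ± 6.02 for MG and 96.6 ± 8.28 for non-MG (SD, n = 2 each).

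Scaled signals of hsa-miR-320d were 135 and 139 with non-MG RNA, compared with 144 and 155 with MG RNA. It was the 1 member of 4 whose groups did not overlap, with 149.5 ± 7.37 for MG and 137 ± 2.98 for non-MG (SD, n = 2 each). Of the 57 miRNAs tested, 61.4% had groups that did not overlap in either direction and 21.1% had both MG arrays higher, so that 1 in 4 members is near or below the background.

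None of the 4 members passed the test of MG against non-MG cells when the 57 miRNAs were tested with limma (two-sided, Benjamini-Hochberg adjustment). With this rule limma called 14 miRNAs, 24.6% of those tested (10.5% being higher in MG cells), against 0 of 4 members, and 0 members also passed at an unadjusted p under 0.05, where 19 of the 57 did. The number called over all miRNAs depended on the setting, with 8 of 57 under the replicate block, 5 without non-MG replicate 1, 3 of 56 without non-MG replicate 2, 9 without MG replicate 2 and 0 of 89 with the scanner's total per miRNA, and no member was called in any of these. The fold change of hsa-miR-320a, the ratio of geometric means of MG over non-MG cells, was 0.946 with a 95% interval of 0.770 to 1.16 and an adjusted p of 0.790 by limma. That of hsa-miR-320b was 0.992, with an interval of 0.807 to 1.22 (limma adjusted p = 0.993). That of hsa-miR-320c was 1.01, with an interval of 0.825 to 1.25 (limma adjusted p = 0.993). That of hsa-miR-320d was 1.09, with an interval of 0.888 to 1.34 (limma adjusted p = 0.623).

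These intervals do not show that the levels were equal, but each lay inside the 1.5-fold change that the study used as its criterion, in both directions. They hold for a spread taken as common to all 57 miRNAs, since limma estimated infinite prior degrees of freedom. Among the 17 alternatives, the interval of hsa-miR-320a reached past 1.5-fold with the scanner's total (0.647 to 1.01) and under quantile normalization (0.642 to 1.31), as did that of hsa-miR-320c under quantile normalization (0.683 to 1.55). Of the 57 miRNAs, 7.02% passed that criterion, and 0 of the 4 members did. The median log2 change was 0.004 over the members and -0.081 over the 57 miRNAs, and each member had an absolute change below the median of 0.213 over all 57. The common spread was 0.151 (SD, log2), while the spread of single members between replicates was 0.055 to 0.125. The median of this single spread over the 57 miRNAs was 0.108, and the members ranked from 12 to 31 from the lowest. For hsa-miR-320a, hsa-miR-320b and hsa-miR-320c, whether the fold change lay above or below 1 depended on the signal summary, the scaling or the arrays included. The fold change of hsa-miR-320d was below 1 among the alternatives only when the scanner's total per miRNA replaced the deposited table.

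**Figure D2:**
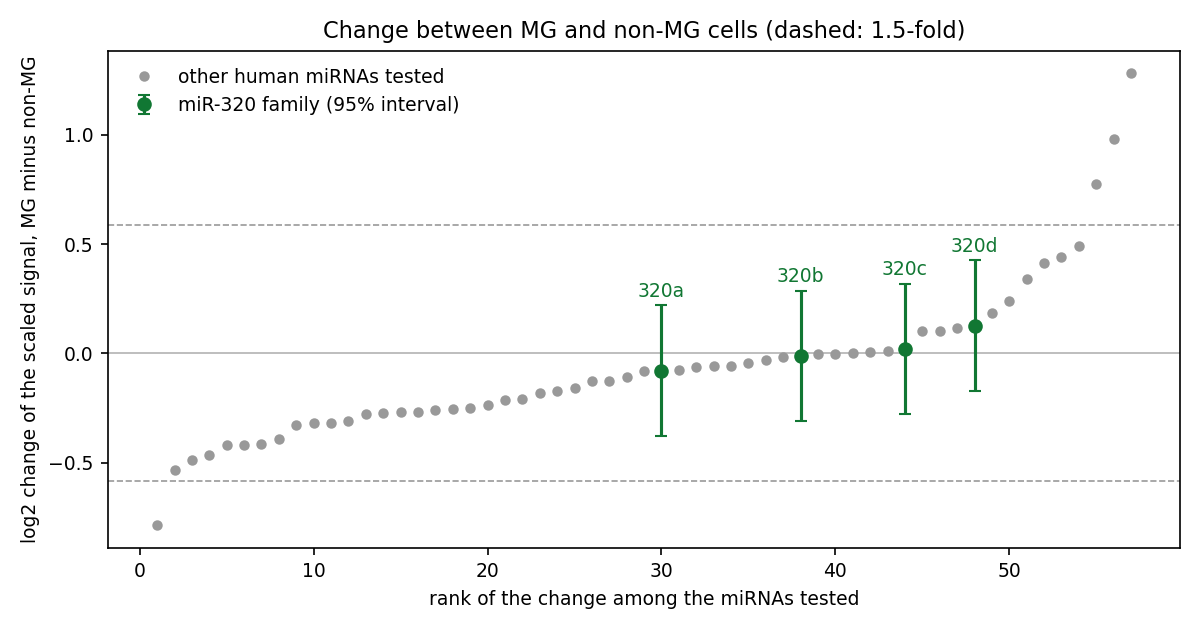
Log2 change of the scaled signal, MG minus non-MG (vertical axis), of the 57 human miRNAs tested, in order of the change (horizontal axis), with the miR-320 family in green and its 95% intervals from limma, and dashed lines at 1.5-fold. The 4 intervals span 0 and stay inside the dashed lines.

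Each member was read by 2 probes of 8 spots each, and the 8 probes were all distinct: 0 of them were listed under more than 1 miRNA of the array. All 32 probe readings, 8 probes on 4 arrays, stood above 3 times their error. Distinct names do not show that a probe binds 1 form alone. The probe sequences were not used here, and binding of one form to the probes of another was not tested.

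The probes of a form did not weigh alike in its signal. For hsa-miR-320c, probe A_25_P00015037 gave 91.2% to 93.1% of the signal, with 87.3 and 89.9 with non-MG RNA, compared with 88.5 and 91.8 with MG RNA. The other probe of this form, A_25_P00015036, gave 8.40 and 7.19 with non-MG RNA, compared with 6.59 and 8.50 with MG RNA. It had 8, 5, 7 and 4 of its 8 spots well above background on the arrays in the same order, so the value of hsa-miR-320c is in effect that of 1 probe. For hsa-miR-320a the brighter probe gave 71.1% to 75.6% of the signal, and for hsa-miR-320b 70.8% to 73.9%.

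After scaling, 5 of the 8 probes were lower and 3 were higher in MG cells, with fold changes from 0.875 to 1.17. In each of the 4 forms the dimmer probe had a fold change below 1. It was 0.875 for hsa-miR-320a, 0.939 for hsa-miR-320b, 0.965 for hsa-miR-320c and 0.965 for hsa-miR-320d, and in all 4 the groups overlapped. The brighter probe had 0.974, 1.01, 1.02 and 1.17 in the same order. The probes of a form read the same RNA and are not replicates, so no test was made over them. The share of probes lower in MG cells over the whole array was not counted. The median log2 change over the 57 miRNAs tested was itself negative, at -0.081.

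In the mean over both non-MG arrays, 1 of the probes of hsa-miR-320d was higher in MG cells. This probe, A_25_P00015271, read 97.6 and 79.2 with non-MG RNA, compared with 101 and 104 with MG RNA, a scaled fold change of 1.17. It was the 1 probe of 8 whose groups did not overlap after scaling. As deposited, the groups did not overlap for 4 of the 8 probes. Besides this one, these were both probes of hsa-miR-320a and the dimmer one of hsa-miR-320b, all lower in MG cells. The share over all probes of the array was not counted, so nothing is drawn from these counts. Per miRNA, the groups did not overlap for 57.9% of the 57 tested as deposited, and for 61.4% after scaling. The other probe of hsa-miR-320d, A_25_P00015270, read 44.5 and 52.5 with non-MG RNA, compared with 45.3 and 48.0 with MG RNA, a scaled fold change of 0.965. Its scaled values were 42.2 and 55.4 with non-MG RNA, compared with 44.6 and 48.9 with MG RNA. Against non-MG replicate 1 alone, both probes were thus higher in MG cells after scaling. On non-MG replicate 2 the probes of hsa-miR-320d moved apart: A_25_P00015271 had its lowest and A_25_P00015270 its highest reading there. Spot signals of A_25_P00015271 on that array ran from 61.7 to 204 with a median of 163, and 4 of the 8 spots, at 61.7, 101, 106 and 139.8, lay below the lowest of its spots on any other array, 166.7. The scanner software marked none of the 8 as an outlier.

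With each probe taken as the median of its unmarked spots, an alternative added after these spots had been seen, hsa-miR-320d still had both MG arrays higher, at 278 and 304 against 264 and 253 (scaled sums of medians). Its log2 change was then 0.17, compared with 0.13 before, and was not called either (limma adjusted p = 0.445). Without non-MG replicate 2, the log2 change of hsa-miR-320d was 0.13 and also not called (limma adjusted p = 0.753).

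**Figure D3:**
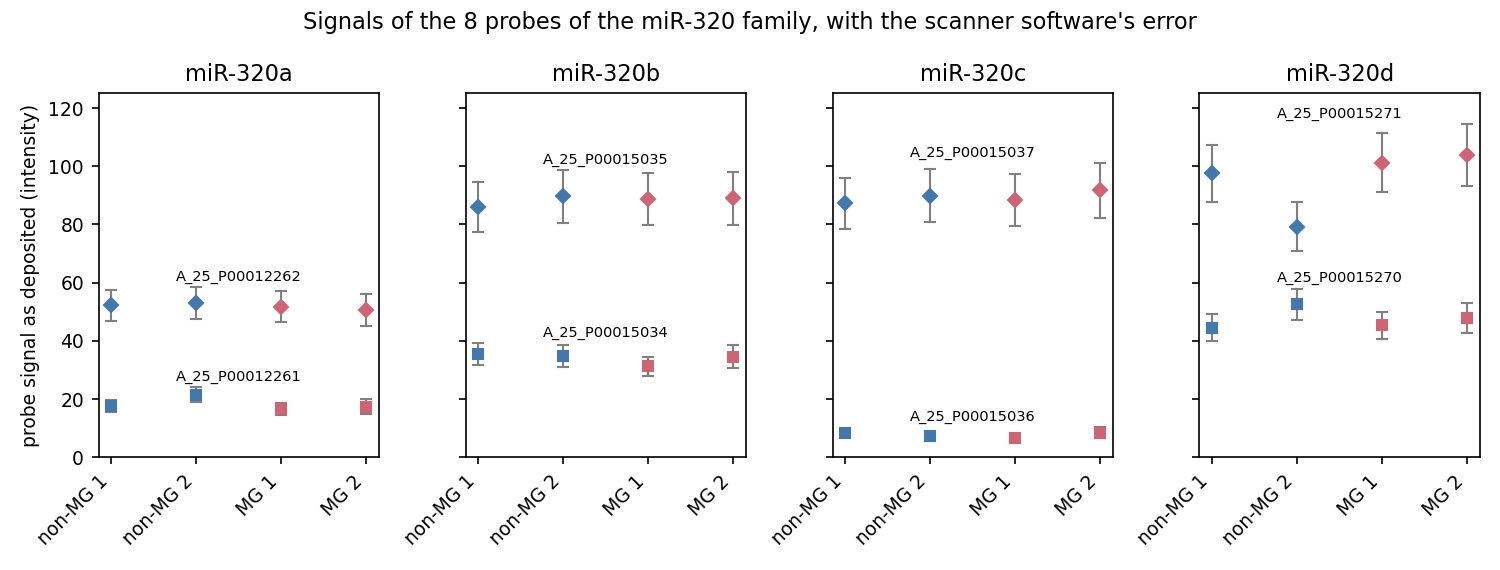
Probe signals as deposited (intensity, vertical axis) of the 8 probes of the miR-320 family on the non-MG (blue) and MG (red) arrays, with bars for the error the scanner software gives. Probe A_25_P00015271 of miR-320d is low on non-MG 2, at 79.2, where its partner A_25_P00015270 is at its highest, 52.5.

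Near-identical forms can be compared within an array, where any scaling factor cancels. For each of the 6 pairs of members, the log2 difference between them was taken on each array and compared between the groups. In all 6 pairs the groups did not overlap, and the form with the later letter was the one higher in MG cells relative to the other. Over all 1596 pairs of the 57 miRNAs, 61.5% had groups that did not overlap, and the 6 pairs share members, so they are not 6 separate observations. An exact two-sided permutation test gave each pair p = 0.333 (adjusted p = 0.333 over the 6 pairs), the smallest that 2 arrays against 2 allow, so no difference between members could be shown.

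The widest of these differences was that of hsa-miR-320a and hsa-miR-320d. On a log2 scale hsa-miR-320a minus hsa-miR-320d was -1.02 and -0.82 with non-MG RNA, compared with -1.10 and -1.16 with MG RNA, which is a ratio that was 0.867 times as high in MG cells. Between single arrays of the groups this factor ran from 0.793 to 0.948. The narrowest was that of hsa-miR-320b and hsa-miR-320c, with 0.34 and 0.36 with non-MG RNA, compared with 0.33 and 0.30 with MG RNA. Their ratio was 0.978 times as high in MG cells, with single arrays giving 0.963 to 0.994. The change of the other 4 pairs lay between these, from -0.07 to -0.14 in log2, while the median over all pairs of miRNAs was 0.259 in size. Each of the 6 changes was thus smaller than that of the median pair of miRNAs. Without non-MG replicate 2, the array with uneven spots for a hsa-miR-320d probe, all 6 kept their direction and became smaller. The log2 change was then -0.11 for hsa-miR-320a minus hsa-miR-320d, against -0.21 with all arrays. It was -0.066 for hsa-miR-320b minus hsa-miR-320d and -0.041 for hsa-miR-320c minus hsa-miR-320d. The lower ratio in MG cells was reversed under quantile normalization for hsa-miR-320b against hsa-miR-320c and against hsa-miR-320d. The groups overlapped there for these pairs and also for hsa-miR-320a against hsa-miR-320c and hsa-miR-320c against hsa-miR-320d, 4 of the 6 pairs. With the median spot of each probe, the groups overlapped for hsa-miR-320b against hsa-miR-320c and for hsa-miR-320c against hsa-miR-320d.

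**Figure D4:**
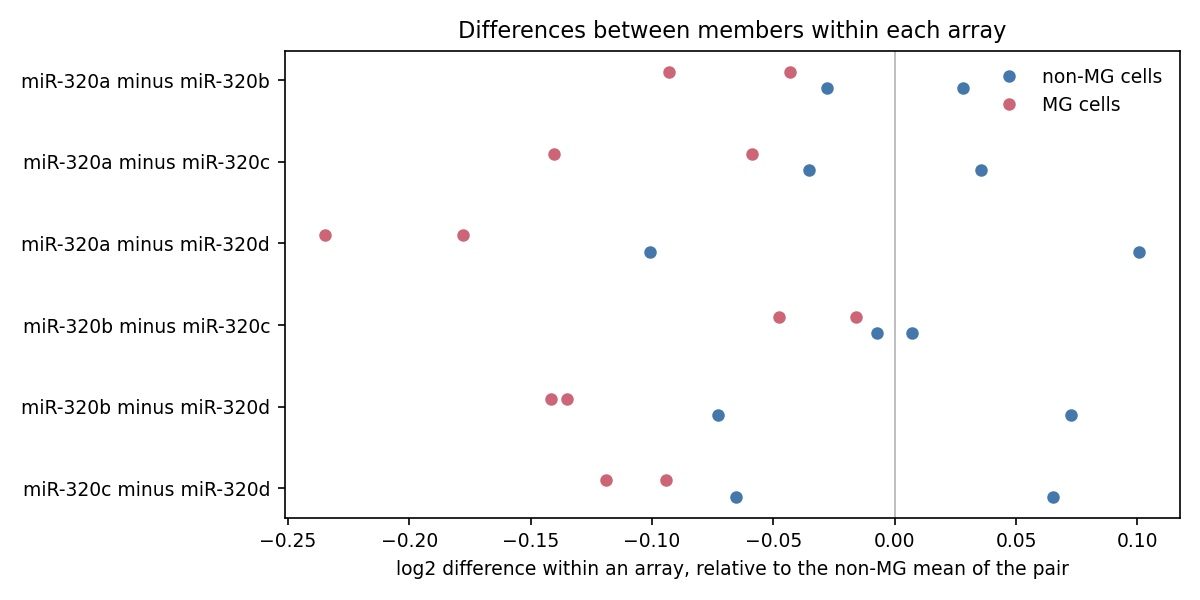
Log2 difference between 2 members within an array, relative to the mean of the non-MG arrays (horizontal axis), for the 6 pairs of miR-320 forms (vertical axis), with a point for each non-MG (blue) and MG (red) array. In all 6 pairs both MG points lie left of both non-MG points, by amounts that reach 0.21 in the mean.

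The scaled profiles of the members over the 4 arrays were compared with the family mean, to which each member itself contributes. The distance of a member from the family mean, over log2 signals centred on their own mean, was 0.026 for hsa-miR-320c, 0.032 for hsa-miR-320b, 0.115 for hsa-miR-320a and 0.141 for hsa-miR-320d. The 53 other miRNAs had a median distance of 0.342. Those nearest to the family were miR-331-3p at 0.103, miR-15b-5p at 0.107 and let-7b-5p at 0.117, with fold changes of 0.968, 0.999 and 1.07. Thus hsa-miR-320a lay farther from the family mean than miR-331-3p and miR-15b-5p, and hsa-miR-320d farther than let-7b-5p too. Distances over 4 arrays are small also for any miRNA that hardly varied, and nothing more is drawn from them.

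The other miRNAs listed here as made without Drosha were for the most part not detected, as were 83.7% of the 851 human miRNAs on the array. The list was fixed by name, and how each of these miRNAs is made was not tested here. For miR-484, whose capped hairpin follows the same route as miR-320, the signal was 3.95 on non-MG replicate 1, where 1 of its probes stood 3.32 times above its error. It was not detected on the other arrays. Mirtrons are hairpins set free by splicing of a short intron. Of 17 mature products on the array that were listed here as mirtrons, from miR-877 and the miR-1224 to miR-1238 group, 16 were not detected on any array. The other 1, miR-1225-5p, was detected on all 4. Its signals as deposited were 36.8 and 41.3 with non-MG RNA, compared with 39.3 and 43.7 with MG RNA, below the minimum of 50 used for testing, and the groups overlapped.

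No member of this list was therefore among the 57 miRNAs tested. With the minimum lowered to 20, 91 miRNAs were tested and miR-1225-5p had a scaled fold change of 1.06 with a 95% interval of 0.852 to 1.33 (limma adjusted p = 0.789). Set beside this list, and not as a miRNA made without Drosha, was miR-451a, whose hairpin is cut by Argonaute 2 rather than by Dicer. It was not detected on any array. Of the miRNAs on these lists, those of the miR-320 family were thus the only ones that passed the minimum. Since most of the others lay below detection, differences between MG and non-MG cells were not detectable for them on these arrays.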

How the data were processed

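Total RNA from 2 MG and 2 non-MG samples of HCT116 was hybridised by the authors to 1-colour Agilent human miRNA arrays. The deposited scanner files hold intensity values per spot, probe and miRNA from Feature Extraction 10.7.1.1, background-subtracted and not normalized between arrays. The deposited value table holds 1 intensity per miRNA and array, at 0.1 where not detected. For all 142 detected miRNAs it equalled, within 0.05%, the summed signal of those probes that exceeded 3 times their error, through which rows and scanner names were matched. This table was the signal used here.

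Each array was divided by its 75th percentile over the 116 miRNAs that every array detected, and log2 was taken with a floor of 1. Human miRNAs that reached a signal of 50 on any array were tested, 57 in all, with limma 3.58.1 (lmFit, eBayes) in R 4.3.3. Differences between members were tested by exact permutation. Functions were tested on simulated data. Tables were handled in pandas 2.3.3 (Python 3.11.15). Named are the members, detected miRNAs of the fixed list of Drosha-independent miRNAs, and the 3 nearest profiles. The members and lists were chosen with earlier results of these data known. As alternatives, the normalization, the signal summary, the background correction, the filter, the floor, the variance trend and a replicate block were varied, and each array was left out. Probe sequences were not used here. Precision is limited by the number of arrays.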

Additional observations from a re-analysis of the deposited data

How the results depend on the processing

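The number of members called stayed 0 under all 17 alternatives run, with limma adjusted p from 0.178 to 1 and fold changes from 0.810 to 1.13. No pair of members could be called under any setting, since the smallest exact permutation p is 0.333. None of the other miRNAs listed as Drosha-independent was bright enough for the test at the minimum of 50. The log2 change of hsa-miR-320a (-0.08) turned to 0.0017 with the median spot. That of hsa-miR-320b (-0.01) turned to 0.0064 under normexp, 0.065 with the median spot, 0.082 under quantile normalization and 0.038 under median scaling. Those of hsa-miR-320c (0.02) and hsa-miR-320d (0.13) turned to -0.20 and -0.098 with the scanner's total per miRNA, where the median over all miRNAs tested was -0.29. Under quantile normalization hsa-miR-320b minus hsa-miR-320c turned from -0.03 to 0.041 and hsa-miR-320b minus hsa-miR-320d from -0.14 to 0.0085. With 1 array left out, log2 changes ran from -0.20 to 0.025 for hsa-miR-320a, -0.11 to 0.065 for hsa-miR-320b, -0.076 to 0.089 for hsa-miR-320c and 0.043 to 0.18 for hsa-miR-320d. The causes were not tested.

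With the replicate block the members called were 0, and limma called 8 miRNAs in all, against 14. It called 0 with the scanner's total, 6 without normalization, 1 without a minimum signal, 1 without any filter, and 3 (without non-MG replicate 2), 5 (without non-MG replicate 1), 9 (without MG replicate 2) or 11 with 1 array left out. Same-numbered arrays deviated together (r = 0.481 across 57 miRNAs), but no source gives a shared batch, so the pairing was not used. The 75th percentile of all miRNAs is the value of an undetected miRNA, and all arrays lay on 1 slide, so those alternatives were not run.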
